A study of Mus musculus with 4 samples.

Results

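Egf and the ErbB receptor family are 8 of the 27998 genes counted in each of 4 mouse kidney libraries: the ligands Egf, Tgfa, Hbegf and Nrg1, and the receptors Egfr, Erbb2, Erbb3 and Erbb4. The genes were taken by symbol, and all 8 were found in every library. They were chosen by their measured levels in these libraries, namely the higher Egf and the lower podocyte Erbb4 after losartan, so these differences are described without a test. The libraries came from kidneys of C57BL/6 mice at post natal week 22, 2 from untreated mice and 2 from mice given losartan, a drug that blocks the type 1 receptor of angiotensin II. RNA of single nuclei was counted as unique molecular identifiers (UMIs), each marking 1 captured transcript. Sources used here do not give the dose, route or duration of losartan or the sex of the mice. No label names a transgene, or says that the replicates are separate animals, so p-values measure only the spread between these libraries, which may be technical.

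The ErbB receptors are tyrosine kinases that pair after a ligand binds outside the cell. Egf, Tgfa and Hbegf bind Egfr, Hbegf also binds Erbb4, neuregulins such as Nrg1 bind Erbb3 and Erbb4, and Erbb2 has no known ligand of its own and serves as a partner. The ligands are made as membrane-bound precursors and are cut free by proteases. In the kidney the distal tubule is the main source of Egf, which is shed into the urine and acts on magnesium transport, while Egfr is known for its part in the regrowth of injured proximal tubule.

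What the ligands share is the EGF-like domain that contacts the receptor, whose fold is held by 6 cysteines. The coding stretch from the first to the last of these cysteines is shown for 3 ligands, 5′ to 3′, with the cysteine codons in capitals (GENCODE M21, GRCm38), so that the members can be compared.
Egf: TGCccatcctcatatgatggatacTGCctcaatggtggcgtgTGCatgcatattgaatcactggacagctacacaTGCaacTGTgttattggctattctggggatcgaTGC
Tgfa: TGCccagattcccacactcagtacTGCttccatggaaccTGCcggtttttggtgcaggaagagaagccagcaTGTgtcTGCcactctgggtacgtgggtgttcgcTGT
Nrg1: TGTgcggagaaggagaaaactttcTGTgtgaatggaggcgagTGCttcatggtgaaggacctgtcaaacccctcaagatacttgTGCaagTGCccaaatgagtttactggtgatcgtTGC
The stretch has 37 codons in Egf, 36 in Tgfa and 40 in Nrg1. The spacing differs in the second gap, of 5, 4 and 5 residues in that order, and in the third, of 10, 10 and 13 residues. The others are alike, with 7, 1 and 8 residues. In each gene 2 exons code for it. In Egf these are exon 20 at chr3:129690771-129690850 and exon 21 at chr3:129686322-129686352, on the minus strand. In Tgfa they are exon 3 at chr6:86263200-86263276 and exon 4 at chr6:86269930-86269960, on the plus strand. In Nrg1 they are exon 2 at chr8:31849310-31849398 and exon 3 at chr8:31837698-31837728 of the transcript with the longest coding sequence, on the minus strand. The UMIs were not assigned to exons, so the levels below are those of whole genes.

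In all, 36003 of 39654 nuclei were kept, 8579 from untreated 1, 9017 from untreated 2, 9036 from losartan 1 and 9371 from losartan 2, and 149 barcode sequences occur in more than 1 library. Library totals ran from 42290414 to 59078762 UMIs, and median depths from 3363 to 4230.5 UMIs per nucleus. Clusters were named from marker genes, so a class name means that its nuclei resemble that cell type. Of 39 clusters, 12 stayed unnamed; they held 6.22% and 6.58% of untreated and 14.7% and 12.2% of losartan nuclei. A level in CPM (counts per 1000000) is a gene's share of the UMIs of that class in that library, times 1000000; it is not scaled to gene length, so levels are compared within a gene. The class named lymphocyte carries transcripts of the distal tubule, with the thiazide-sensitive transporter Slc12a3 at 3141, 1620, 3435 and 5121 CPM in untreated 1, untreated 2, losartan 1 and losartan 2, the order of all values below. UMIs of abundant tubule genes such as Slc12a1 were found in nuclei of every class, as free RNA gives in droplet data.

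Egf and its receptor Egfr were highest in different segments, while Egf and Erbb4 shared theirs. Egf was highest in the thick ascending limb, at 3829 to 9198 CPM, followed by the distal convoluted tubule at 1845 to 4879 CPM. These classes held 59.7% and 19.8% of all Egf UMIs. The 4-library ranges of these neighbours overlap, but within each library the thick ascending limb was higher. In the next classes of the order, the lymphocyte class with its distal tubule transcripts and the podocytes, the means were 936 and 488 CPM. From type A intercalated nuclei down to the proximal tubule, at 320 to 130 CPM, no neighbours in the order were apart. Nrg1 was highest in injured proximal tubule, with a mean of 1412 CPM, and 413 CPM in proximal tubule. Tgfa was highest in urothelium at 98.6 CPM, parietal epithelium at 56.4 CPM and podocytes at 49.9 CPM, which overlapped in part and lay above injured proximal tubule, at 30.3 CPM. In the thick ascending limb it was at 1.51 CPM. Hbegf ran from 6.58 CPM in podocytes to 54.9 CPM in urothelium with overlapping neighbours throughout.

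Among the receptors, Egfr led in injured proximal tubule at 801 CPM, proximal tubule at 615 CPM and thin limb at 589 CPM, which overlapped, and was lowest in podocytes at 44.5 CPM. The thick ascending limb, at 173 CPM, and the distal convoluted tubule, at 133 CPM, were at ranks 8 and 13 of the 16 classes in the Egfr order and at the top of the Egf order. Erbb4 was at 11951 CPM in the thick ascending limb and 2312 CPM in the distal convoluted tubule, each apart from the class below it, and 64.6% of its UMIs lay in the thick ascending limb. Erbb3 was highest in proximal tubule at 84.4 CPM and lowest in fibroblasts at 8.98 CPM. Erbb2 was between 6.44 and 45.8 CPM in all 16 classes ordered, with overlapping neighbours throughout. Such class differences come from the clustering of the same nuclei and carry no test.

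**Figure D1:**
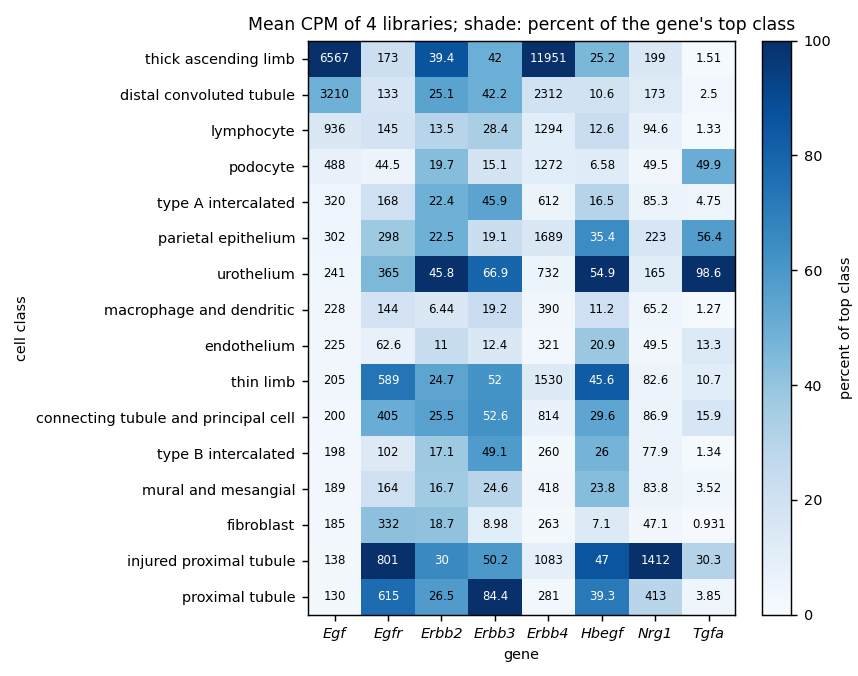
Level of the 8 genes (columns) in 16 cell classes (rows): numbers are the mean CPM of 4 libraries, and shade is the percent of the gene's own highest class. Egf and Erbb4 are darkest in the thick ascending limb, Egfr and Nrg1 in injured proximal tubule and Erbb3 in proximal tubule.

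The genes whose pattern across the 18 named classes was most like that of a member were ranked by Pearson's r of log2 of mean CPM plus 5, among 14379 genes. These are correlations across classes that share libraries and free RNA, given as a description. For Egf the first 3 were Gm42697 (r = 0.98), 6330410L21Rik (r = 0.97) and Gm42650 (r = 0.97), which the annotation places across Egf on the opposite strand, followed by Prox1os (r = 0.95) and Umod (r = 0.94), the uromodulin gene of the thick ascending limb. For Egfr the first was Egfros (r = 0.95), on the opposite strand across Egfr, then Npas2, Rab20, Dqx1 and Nt5c2 (r = 0.88 to 0.85). For Erbb3 they were Ccdc51, Thtpa, Gm21985, Mrps7 and Arhgef19 (r = 0.88 to 0.86). For Erbb4 they were Gm1661, Glycam1, Gm8439, Egf and Dok2 (r = 0.82 to 0.79). Sources used here do not state the strand used in counting, so reads of a gene and of its antisense partner cannot be told apart.

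The first comparison asked whether members differed between losartan and untreated libraries in the whole kidney. Egf was at 859, 571, 1140 and 1203 CPM. Both losartan libraries lay above both untreated ones, and the fitted difference was 0.86 on the log2 scale (SE 0.24). It was 0.56 without untreated 2 and 1.23 without untreated 1. Thick ascending limb nuclei made up 14.3%, 9.76%, 9.67% and 12.1% of nuclei. Distal convoluted tubule nuclei made up 7.96%, 7.08%, 6.99% and 6.71%. The part of these shares in the Egf level of the whole kidney was not tested. Nrg1 was at 425, 388, 163 and 239 CPM, with a log2 difference of -0.87 (SE 0.19, adjusted p = 0.125 in edgeR's quasi-likelihood test). Both losartan libraries were the lower ones, as for 44.7% of the 18410 genes tested, while 14% had both higher. Erbb3 was at 53.7, 45.3, 75.5 and 60.6 CPM, with both losartan libraries higher and a log2 difference of 0.61 (adjusted p = 0.165). The other 5 members had log2 differences from -0.73 for Tgfa to 0.57 for Hbegf, with adjusted p from 0.167 to 0.549. In this fit 0 of 8 members passed an adjusted p of 0.05, as did 0% of 18410 genes, while 4038 genes had an unadjusted p under 0.05. DESeq2 called 1597 genes, 9.29% of those it tested, among them 3 members, Egf, Erbb3 and Nrg1. Egf was chosen for its losartan difference, so nothing is read from its call. In whole kidney, fewer cells of a type and less RNA per cell cannot be told apart.

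**Figure D2:**
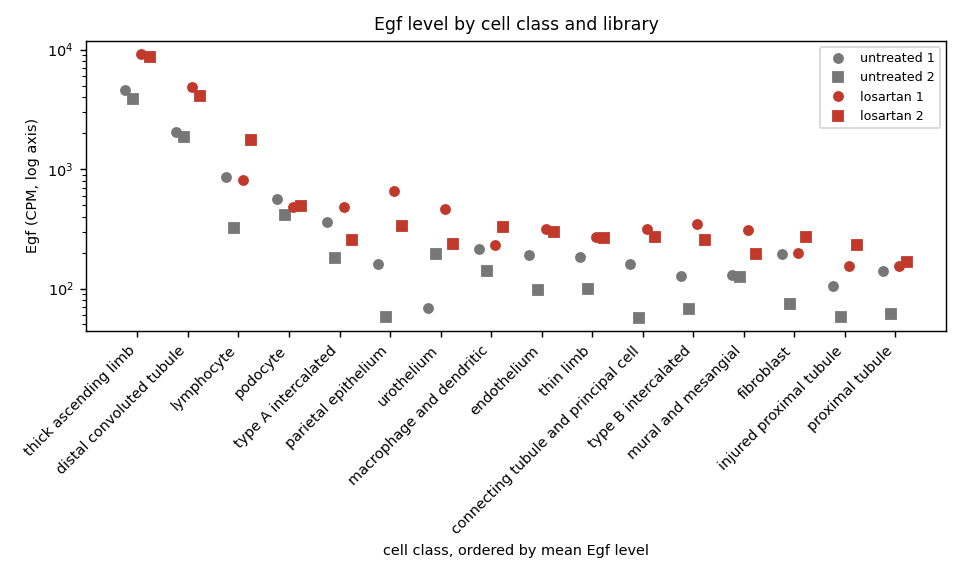
Egf level in CPM (log axis) in 16 cell classes ordered by their mean, with 1 point per library, untreated in grey and losartan in red. In the thick ascending limb and the distal convoluted tubule both losartan libraries are above both untreated ones, and in podocytes they overlap.

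Within the segments that make it, Egf was higher in both losartan libraries than in either untreated one. The level in the thick ascending limb was 4616, 3829, 9198 and 8627 CPM. The losartan libraries are close to each other and well above both untreated ones, with a log2 difference of 1.13 (SE 0.14). In the distal convoluted tubule it was 2023, 1845, 4879 and 4092 CPM, with a log2 difference of 1.25 (SE 0.11). Here too the groups are far apart. The difference between these 2 segments in their response was 0.12 on the log2 scale (SE 0.11), which is about its own error. Both kinds of thick ascending limb nuclei shared it. In the cluster led by Enox1, Casr and Cldn16, genes of the cortical limb, Egf was at 6240, 5633, 13096 and 11926 CPM. In the cluster led by Kcnt1, Tmem207 and Ptger3 it was at 2978, 1731, 5316 and 6025 CPM. Of the marker genes of the segments, Umod, Slc12a1 and Slc12a3 moved less. In the thick ascending limb its 7 markers summed to 19802, 19715, 21040 and 23215 CPM. Of their fitted differences, 3 were above 0 and 4 below. In the distal convoluted tubule its 7 markers summed to 27238, 27592, 36023 and 34175 CPM, with 6 above 0 and 1 below. Umod in the thick ascending limb was at 1949, 1567, 2015 and 2048 CPM, a log2 difference of 0.26 (SE 0.13, adjusted p = 0.601). Slc12a1, the sodium-potassium-chloride transporter of that segment, was at 16112, 16127, 17573 and 19329 CPM (log2 difference 0.24, adjusted p = 0.669). Slc12a3 in the distal convoluted tubule was at 14783, 14742, 17307 and 16357 CPM (log2 difference 0.23, adjusted p = 0.434).

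The 3 genes on the opposite strand across Egf were also higher in both losartan libraries of the thick ascending limb. The order of libraries within a group was not always that of Egf. Gm42697 was at 89.7, 79.6, 191 and 176 CPM in the thick ascending limb and at 47.2, 51.2, 107 and 95.8 CPM in the distal convoluted tubule. Gm42650 in the thick ascending limb was at 32.6, 28.2, 57.7 and 63.0 CPM. 6330410L21Rik was at 23.1, 21.2, 49.7 and 45.7 CPM there. In each, both losartan libraries are above both untreated ones. Gm42697 and 6330410L21Rik overlap an exon of Egf in the annotation, and Gm42650 overlaps none.

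The difference was also seen in the share of nuclei with an Egf UMI after each nucleus was thinned to 2000 UMIs. This left out 95 thick ascending limb, 46 distal convoluted tubule and 111 proximal tubule nuclei of untreated 1 that had fewer, and none of the other libraries in these classes. The share in the thick ascending limb was 83.9%, 74.3%, 96.1% and 95.9%, against 89.0%, 84.4%, 97.5% and 98.0% unthinned. Its exact 95% Clopper-Pearson intervals, which cover counting error only, were 81.6 to 86.0%, 71.3 to 77.2%, 94.6 to 97.3% and 94.5 to 96.9%. In the distal convoluted tubule it was 68.6%, 55.6%, 83.2% and 83.5%. The median thinned nucleus of the thick ascending limb held 5, 3, 15 and 14 Egf UMIs. The proximal tubule, which is not known as a source of Egf, had shares of 23.8%, 11.6%, 25.4% and 27.5% at median depths of 4022.5 to 5648 UMIs. Endothelium, which is not known as a source either, had thinned shares of 28.2%, 17.5%, 41.4% and 42.0% at median depths of 2476 to 2878 UMIs. Fibroblasts had 29.2%, 16.2%, 34.0% and 32.4% at median depths of 2931 to 3699.5 UMIs. Shares up to the highest of these are read as background, which was itself higher in the losartan libraries. In untreated 1, thinning left out 111 endothelial and 79 fibroblast nuclei. The level of Egf in proximal tubule was 139, 60.6, 154 and 168 CPM, and in endothelium 189, 97.5, 316 and 296 CPM. Of the 14 classes tested, 11 had both losartan libraries above both untreated ones for Egf, where 16.5% of all gene and class pairs did. In the 9 of these outside the thick ascending limb and the distal convoluted tubule, the losartan libraries lay between 154 CPM, in proximal tubule, and 654 CPM, in parietal epithelium.

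The groups overlapped in podocytes, type A intercalated nuclei and the lymphocyte class. Of these, only podocytes had a fitted difference that was not above 0. Their Egf was at 566, 416, 480 and 490 CPM, with a log2 difference of -0.01 (SE 0.17). They held 2.06, 2.98, 1.84 and 1.68 Egf UMIs for each Umod UMI, against 0.628, 0.50, 0.882 and 0.928 in the proximal tubule. Umod is made in the thick ascending limb, where the ratio was 2.37, 2.44, 4.57 and 4.21. The ratio of podocytes is thus above that of the proximal tubule in each library. So was that of the lymphocyte class, at 1.30, 1.18, 1.84 and 3.55. So was that of type A intercalated nuclei, at 0.986, 0.787, 1.72 and 0.968, so the ratio is not particular to podocytes. The losartan difference of podocytes was lower than that of the thick ascending limb by 1.15 on the log2 scale (SE 0.23). Egf was chosen for the thick ascending limb value, so no test is read from this gap. In parietal epithelium Egf was at 159, 57.9, 654 and 336 CPM, but Slc12a3, a gene of the distal convoluted tubule, was at 445, 80.7, 1236 and 575 CPM in the same nuclei. Its part in that result was not tested.

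**Figure D3:**
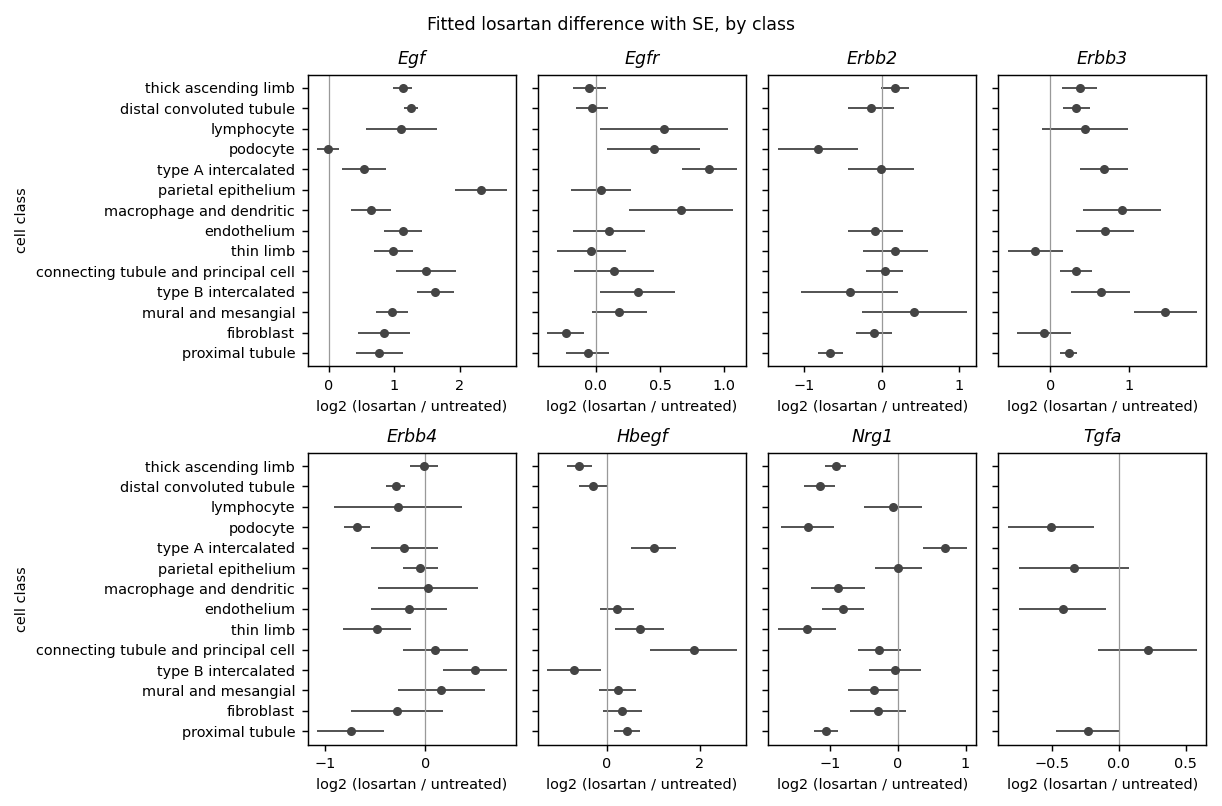
Fitted log2 difference, losartan over untreated, with its SE, for each of the 8 genes (panels) in the 14 classes tested (rows, in 1 order), each of which had 50 nuclei or more per library; a class is left out where the gene did not pass the filter on low counts. Egf lies above 0 in 13 classes and near 0 in podocytes, and Nrg1 lies below 0 in 12 classes.

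Across the 14 classes, 94 member and class pairs passed the filter on low counts, and 3 passed an adjusted p of 0.05, against 0.386% of all 136445 gene and class pairs. They are Egf in the thick ascending limb and the distal convoluted tubule, and Erbb4 in podocytes. By class, the share of all genes called was 0.302%, 0.249% and 0.275%. These are contrasts of the kind for which the genes were chosen, so nothing is read from the count. Egf in the thick ascending limb was not called without losartan 1, without losartan 2 or with no filter on low counts. Erbb4 in podocytes was not called without losartan 1 or at Leiden resolution 2, a finer clustering. Because the genes were chosen for these contrasts, calls kept or lost between fits are no test of them. The other 7 genes, with their own values, follow by role.

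Nrg1, the neuregulin ligand of Erbb3 and Erbb4, was lower in the losartan libraries of most classes but passed the test in none. In proximal tubule it was at 532, 605, 215 and 301 CPM, with a log2 difference of -1.06 (SE 0.18, adjusted p = 0.208, edgeR). In the thick ascending limb it was at 292, 236, 118 and 150 CPM, with a log2 difference of -0.92 (SE 0.16, adjusted p = 0.0831). In the distal convoluted tubule it was at 223, 258, 75.3 and 135 CPM, with a log2 difference of -1.16 (SE 0.23, adjusted p = 0.132). In all 3 segments both losartan libraries were below both untreated ones, and losartan 1 was the lowest. The fitted difference was below 0 in 12 of 14 classes, and in 7 the groups did not overlap, with both losartan libraries lower, where 22.3% of all gene and class pairs did so. An unadjusted p under 0.05 was reached in 6 of the 14 classes. By DESeq2 the adjusted p was 2.79e-05 in proximal tubule, 0.00143 in the thick ascending limb and 0.422 in the distal convoluted tubule. By edgeR with no filter on low counts it was 0.162, 0.356 and 0.162 in the same order of segments. With 1 library left out, the log2 difference in proximal tubule was -1.30 to -0.845. In the thick ascending limb it was then -1.11 to -0.750, and in the distal convoluted tubule -1.64 to -0.788.

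The class with the highest Nrg1 was itself smaller in the losartan libraries. Injured proximal tubule nuclei made up 4.83%, 5.25%, 0.432% and 1.58% of nuclei, with only 39 in losartan 1, so the class was not tested. Nrg1 in it was at 1873, 1615, 497 and 1661 CPM, and losartan 2 did not differ from the untreated libraries. The summed level of the 8 markers of this class, such as Havcr1 and Vcam1, was lower in the losartan libraries of other segments as well, with no marker at 0. In proximal tubule it was 109, 126, 33.4 and 42.5 CPM, in the thick ascending limb 225, 256, 89.7 and 115 CPM, and in the distal convoluted tubule 283, 322, 29.3 and 54.4 CPM. These values move with Nrg1, and their part in the result was not tested.

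**Figure D4:**
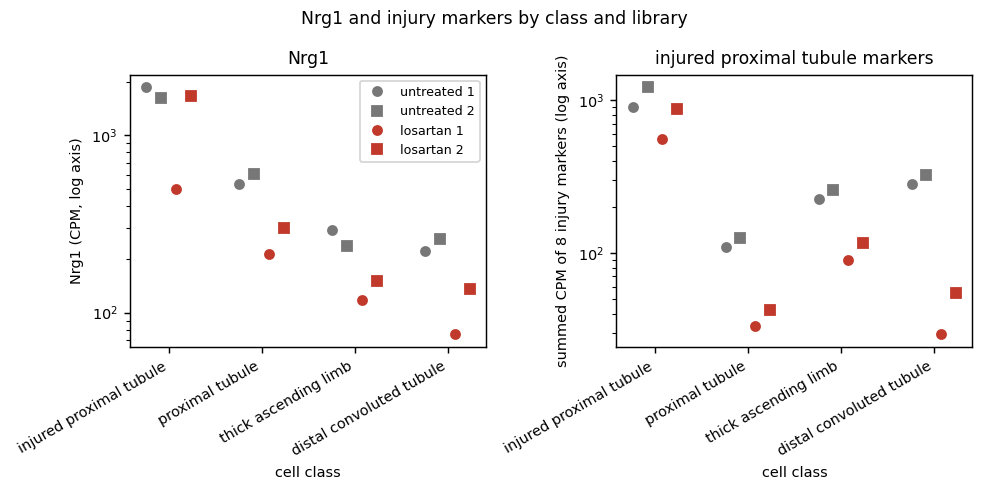
Nrg1 (left) and the summed level of 8 markers of injured proximal tubule (right), both in CPM on a log axis, in 4 classes with 1 point per library. Both losartan libraries are below both untreated ones in proximal tubule, thick ascending limb and distal convoluted tubule for both measures, while Nrg1 of losartan 2 is at the untreated level in injured proximal tubule.

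The other 2 Egfr ligands changed less evenly. Hbegf, the heparin-binding member, had adjusted p of 0.495 or more in each of the 10 classes where it passed the filter. Its largest fitted difference, 1.87 in connecting tubule and principal cells, came from 1 library, at 12.8, 13, 83.9 and 8.73 CPM. Tgfa passed the filter in 5 classes, where log2 differences ran from -0.51 to 0.22 with adjusted p of 0.762 or more. In podocytes, 1 of its main classes, it was at 61.2, 56.3, 36.2 and 46.1 CPM.

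In the fit of all 4 libraries with the filter on low counts and no block, Egfr, the receptor of Egf, passed in no class. With the replicate number as a block, Egfr passed in type A intercalated cells (adjusted p = 0.0252, edgeR), where 368 of 8091 genes were then called. In proximal tubule it was at 642, 651, 489 and 679 CPM, a log2 difference of -0.07 (SE 0.16), and in the thick ascending limb at 195, 163, 157 and 177 CPM (-0.05, SE 0.13). Groups overlap in both. The lowest adjusted p of the gene was in type A intercalated cells, the acid-secreting cells of the collecting duct. There it was at 144, 101, 191 and 237 CPM, with a log2 difference of 0.88 (SE 0.21, adjusted p = 0.0568, edgeR). The adjusted p was 0.00613 by edgeR with no filter, a fit that called 493 of 17126 genes, and 0.404 by DESeq2. With 1 library left out, the log2 difference was 0.62 to 1.12, the lowest without untreated 2. Markers of the proximal tubule, an Egfr-rich class, moved in the same nuclei, and their summed level of 10 markers was 1226, 607, 4153 and 2997 CPM with none at 0. Without the 10% of nuclei richest in these markers, Egfr in type A cells was at 136, 98.1, 172 and 131 CPM, losartan 2 then lay within the untreated range, and the adjusted p was 0.923. Of the 7546 genes in that fit, 1 was called.

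Erbb4 was lower in the podocytes of both losartan libraries. Its level there was 1680, 1454, 955 and 999 CPM, with a log2 difference of -0.68 (SE 0.13). The background level of Erbb4, as read in endothelium, was 490, 196, 263 and 336 CPM, and in proximal tubule 460, 257, 153 and 252 CPM. In its main class, the thick ascending limb, Erbb4 was at 12690, 11701, 11792 and 11620 CPM, with overlapping groups and a log2 difference of -0.01 (SE 0.14). The distal convoluted tubule had 2763, 2395, 1968 and 2123 CPM (-0.30, adjusted p = 0.355). The podocyte difference was below that of the thick ascending limb by 0.68 on the log2 scale (SE 0.23), and was not called. The podocyte value was one the genes were chosen for, so no test is read from it.

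Erbb3, the receptor with a weak kinase that binds neuregulins, passed the filter on low counts in 12 classes, with fitted differences above 0 in 10. In 8 of these 12 both losartan libraries were the higher ones, where 16.5% of all gene and class pairs did so. In proximal tubule, where it is highest, it was at 81.9, 78.0, 93.6 and 83.9 CPM (log2 difference 0.23, SE 0.10, adjusted p = 0.443). Its largest fitted difference, in mural and mesangial cells, rested on 11.7, 13.5, 34.5 and 38.6 CPM (1.47, adjusted p = 0.104). Erbb2, the partner without a ligand, was at 37.5, 28.9, 19.3 and 20.3 CPM in proximal tubule. Both losartan libraries were lower, and the log2 difference was -0.66 (SE 0.16, adjusted p = 0.248). In the other classes its adjusted p was higher still.

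Of the other genes of the pathway, a list of 69 was followed: further ligands, shedding proteases, adaptors and kinases that relay the signal, inhibitors, transcriptional targets and genes of distal magnesium handling. Of 675 gene and class pairs tested, 1 was called higher and 2 lower, against 0.386% of all pairs. By role, 0 of 19 pairs of other ligands, 0 of 66 of shedding proteases and 0 of 121 of magnesium handling passed. The median log2 difference of 60 list genes in the thick ascending limb was -0.03, beside 0.00 over all genes, and in the distal convoluted tubule that of 58 list genes was -0.07 beside 0.00.

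In the distal convoluted tubule, where Egf was higher, the 2 list genes called were lower. Stat3, a transcription factor that ErbB and cytokine receptors activate, was at 345, 337, 174 and 202 CPM. The groups are far apart, with a log2 difference of -0.82 (SE 0.11, adjusted p = 0.0419). Etv4, an ETS factor used as a readout of the kinase cascade, was at 55.9, 54.9, 22.4 and 23.6 CPM (-1.23, SE 0.17, adjusted p = 0.0419). In this class 0.249% of genes were called. Without losartan 1 neither passed, with adjusted p of 0.289 and 0.333, and Etv4 was at 0.125 without losartan 2 and at 0.0537 with no filter. Stat3 overlaps Stat5a on the opposite strand at its end.

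The list gene called higher was Errfi1, an inhibitor of Egfr, in type A intercalated cells. It was at 301, 163, 1086 and 950 CPM, a log2 difference of 2.22 (SE 0.25, adjusted p = 0.00168), in a class where 3.14% of genes were called. The proximal tubule markers of these nuclei, given above, had the same order of libraries. Without the 10% of nuclei richest in those markers, Errfi1 was at 214, 131, 824 and 229 CPM, so that losartan 2 came near untreated 1, and the adjusted p was 0.718. In that fit 1 of 7546 genes of the class was called. The 10 markers were then at 847, 388, 2860 and 978 CPM.

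**Figure D5:**
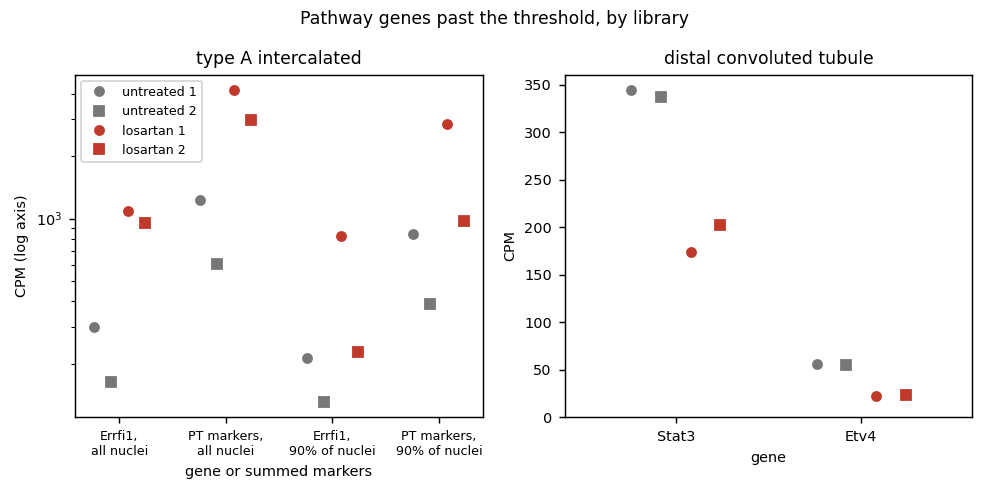
Left: Errfi1 and the summed 10 proximal tubule (PT) markers in type A intercalated nuclei in CPM (log axis), for all nuclei and for the 90% with the fewest PT marker UMIs. Right: Stat3 and Etv4 in the distal convoluted tubule in CPM. Each point is 1 library; the losartan 2 point of Errfi1 drops from 950 to 229 when the richest nuclei are left out.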

How the data were processed

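The deposited files hold raw UMI counts per gene and nucleus, written by Cell Ranger 5.0.0 per the file headers. Per the submitters' processing notes, mm10 is the build, and Bowtie 0.12.2 is named with no step given. Filters asked for 500 UMIs and 300 genes or more per nucleus, with mitochondrial UMIs of 10% or less. Doublets, 3171 in all, were removed with Scrublet in scanpy 1.11.5; where its own threshold failed, in 3 libraries, a top fraction by score was taken, 0.8% for each 1000 nuclei. The kept nuclei were clustered without the members (3000 variable genes, 30 components, 15 neighbours, Leiden resolution 1, igraph 0.11.9) and named from fixed markers. Clusters with a median doublet score above 2.5 and a median depth above 0.95, both relative to the library median, stayed unnamed, limits set after seeing the data. Below that depth a Schwann cluster and a lymphocyte cluster of 59 nuclei kept their names at scores of 3.01 and 2.73.

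Counts were summed per library, for the whole kidney and for 14 of 18 named classes, those with 50 nuclei or more per library. The groups were compared with edgeR 4.0.16 (quasi-likelihood test, TMM, filterByExpr, R 4.3.3), adjusted by Benjamini-Hochberg over all genes of a fit. Differences are log2, losartan over untreated. Alternatives were DESeq2 1.42.0, RLE factors, no filter, the replicate number as a block, each library left out and Leiden resolution 2. Library totals run from 42290414 to 59078762 UMIs, and with 2 libraries per group the spread rests on few values. The members and lists were chosen with earlier results of these data known. The text names the 8 members, pathway genes called in any fit (at most 10), Umod, Slc12a1, Slc12a3 and antisense genes beside Egf, and the 5 genes most alike to Egf, Egfr, Erbb3 and Erbb4.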

Additional observations from a re-analysis of the deposited data

Results flagged for a closer look

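The losartan difference of Egf in podocytes was 1.15 lower on the log2 scale than that in the thick ascending limb (-1.15, SE 0.23), from 1 edgeR fit of both classes with library as a block. No p is given because Egf was chosen for its losartan difference in the thick ascending limb, which is 1 side of this contrast.

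For Egfr and Hbegf the losartan libraries moved in opposite directions in different classes, which was not tested. Among classes where the gene passed the filter, both losartan libraries were higher in 2 and lower in 1 of 14 for Egfr. For Hbegf they were higher in 1 and lower in 1 of 10. Over all gene and class pairs, 16.5% were higher and 22.3% lower in this way, so nothing is read from these counts. Egfr was higher in both losartan libraries of type A intercalated cells (log2 difference 0.88) and lower in both of fibroblasts (-0.24). Hbegf was higher in both losartan libraries of type A intercalated cells (1.01), where it rests on 38 UMIs in all 4 libraries, and lower in both of the thick ascending limb (-0.60). The levels of proximal tubule markers in type A intercalated nuclei, given above, move with both, and their part in them was not tested.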

How the results depend on the processing

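The Egf difference had the same direction in all 12 alternatives for each segment. Egf was chosen for this difference and its groups do not overlap in either segment, so the kept direction is no test of it. In the thick ascending limb it was 1.001 to 1.28 with 1 library left out, the highest without untreated 1, and 1.08 after subtracting the proximal tubule level of Egf. In the distal convoluted tubule it was 1.13 to 1.37 with 1 library left out and 1.24 after that subtraction. Putting back the unnamed cluster nearest to each segment, added after seeing the data, gave 1.11 and 1.20.

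Counts of calls depended on the fit, for members and for all genes alike. For the whole kidney, DESeq2 called 3 members and 9.29% of all genes, the replicate block 4 members and 12.3%, and leaving out a library 0 to 0 members and at most 0.121%. Across classes, against 3 member calls, 3 of the pathway list and 0.386% of all pairs, DESeq2 gave 5, 5 and 0.654%. No filter on low counts gave 12, 26 and 1.2%, and the replicate block 12, 14 and 1.22%. Without untreated 1 these were 24, 60 and 4.86%, without untreated 2 16, 20 and 1.47%, without losartan 2 9, 8 and 0.802%, and without losartan 1 2, 1 and 0.251%. A left-out library leaves 1 in its group, which is then assumed to vary like the other group. The cause was not tested.

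The labels share the numbers 1 and 2 but name no shared animal or day. Libraries of the same number deviated together, with correlations of 0.397 for the whole kidney and 0.033 to 0.394 by class. Under the block Nrg1 passed in proximal tubule (adjusted p = 0.0309), thick ascending limb (0.00129) and distal convoluted tubule (0.0331). Egfr passed in type A intercalated cells (0.0252), and Erbb3, Nrg1 and Hbegf in the whole kidney. So did Egf in the whole kidney, from which nothing is read because it was chosen for its losartan difference. Of 125 values of single genes with a test, 100 kept their side of the threshold and their direction, 19 gained and 5 lost a call, and 1, that of Erbb2 in the whole kidney, not called in either, reversed. Its log2 difference of -0.19 was -0.385 to 0.0447 with 1 library left out, the highest without untreated 1. Of 18 described without a test, for Erbb4 in podocytes and Egf in the whole kidney, 1 moved by more than the spread between replicates. Only 2 libraries a group limit the precision.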

Other observations

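Hbegf stood out in 1 library. In the cluster led by Aqp4, Elf5 and Aldh1a3 it was at 61.0, 24.7, 255 and 15.5 CPM in untreated 1, untreated 2, losartan 1 and losartan 2, from 2, 38, 125 and 13 UMIs. This cluster held 9, 316, 117 and 178 nuclei, so untreated 1 has almost none of it.

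In the unnamed cluster led by Egfem1, Slc8a1 and Trpv5, genes of the distal convoluted and connecting tubule, Egf was at 544, 926, 1747 and 1863 CPM, from 19, 8, 77 and 22 nuclei. In the unnamed cluster led by Fa2h, Slc12a1 and Egf it was at 2638, 3077, 7942 and 5391 CPM, from 5, 5, 73 and 35 nuclei. Both losartan libraries were above both untreated ones in each.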
